A study of Arabidopsis thaliana with 12 samples.

Results

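The comparison concerns the replicate numbers of an RNA sequencing study of Arabidopsis thaliana shoot apices, with the 6 libraries numbered III and IV set against the 6 libraries numbered I and II. All 12 libraries of the study entered, each was placed in a set by the number in its label alone, and genotype was a covariate. The comparison itself was chosen with earlier results of these data known. Each number occurs once in each of 3 genotypes: ap2-12, which carries a mutant allele of APETALA2 (AP2), a regulator of floral organs; rAP2-VENUS, a line named #A6 that carries an AP2 construct joined to the yellow fluorescent protein VENUS; and wild type (WT) of accession Col-0. The numbers III and IV therefore hold 2 libraries each of ap2-12, rAP2-VENUS and WT, and so do the numbers I and II. The labels do not spell out the r in rAP2, nor whether the line keeps its own AP2 gene, and #A6 is a single line. Days of 16 h light and nights of 8 h were used for all plants, no group received a treatment, and apices, 15 to a replicate, were taken when the main stem stood 1 cm high. The labels call the 4 replicates of a genotype independent and biological. They give no harvest date, hour of harvest, plant batch or sequencing run for any number, so what III and IV share against I and II is not stated, and libraries of the same number may have been grown or harvested together.

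The circadian clock of plants is a network of transcription factors that repress or activate each other in turn over the day. The related MYB factors CCA1 and LHY peak around dawn and repress genes that are expressed in the evening, through a short promoter motif called the evening element. The pseudo-response regulators PRR9, PRR7, PRR5, PRR3 and TOC1 follow in sequence through the day and repress CCA1 and LHY, and ELF3, ELF4 and LUX form the evening complex. Many genes of sugar use, pigment synthesis, sulfur assimilation and growth are known to follow the time of day, light and sugar supply in leaves and seedlings.

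Library totals ran from 10579822 to 14431357 counts in III and IV and from 9680133 to 15152704 counts in I and II, so the depth of the sets overlapped. The 10 most abundant genes took 3.02% to 3.79% of the counts in III and IV and 2.34% to 3.37% in I and II. The label of shoot apex with flower buds matched its markers, since 19 of 20 meristem and boundary genes and 17 of 18 floral identity genes had enough counts to be tested, against 0 of 12 root genes and 0 of 12 seed and embryo genes. AP2 itself was at 15.5 to 20.6 CPM (counts per 1000000 counts of a library after scaling) in the 4 ap2-12 libraries, 41.4 to 58.2 CPM in the 4 rAP2-VENUS libraries and 42.3 to 92.8 CPM in the 4 WT libraries.

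With the genotype means removed, the first principal component of log2 CPM over the 18807 tested genes held 54.8% of the variance. The libraries of III and IV scored 7.69 to 45.4 and those of I and II scored -48.3 to 3.01. The only positive score in I and II was that of ap2-12 replicate II, which stood apart from the other 5 libraries of its set (-48.3 to -12.9) and nearest to those of III and IV. The count of called genes and those of several lists are therefore also given without it. Of the sum of squares left after genotype, 42.1% lay between III and IV and I and II, 5.96% between IV and III and 11.6% between II and I, each on 1 degree of freedom. The remaining 40.4%, on 6 degrees of freedom, was not shared between genotypes.

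**Figure D1:**
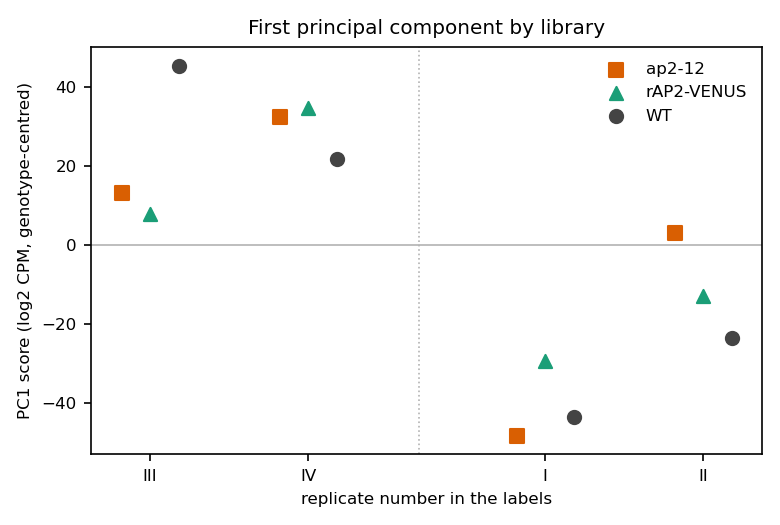
Score of each library on the first principal component of genotype-centred log2 CPM (vertical axis, no unit) by replicate number (horizontal axis), III and IV left of I and II; each point is 1 library and its shape gives the genotype. The 6 libraries of III and IV lie between 7.69 and 45.4, and 5 of the 6 libraries of I and II lie at or below -12.9, with ap2-12 replicate II at 3.01.

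Of 18807 genes, 6685 (35.5%) differed between III and IV and I and II at an adjusted p under 0.05 in edgeR's quasi-likelihood test with Benjamini-Hochberg adjustment, 3342 of them higher (17.8%) and 3343 lower (17.8%) in III and IV. A gene that passed this test is called below. Of the called genes, 422 differed by at least 2-fold (2.24% of all genes tested), of which 301 were at least 2-fold higher (1.6%) and 121 at least 2-fold lower (0.643%). The libraries of the sets did not overlap for 1264 genes (6.72%): all 6 of III and IV lay above all 6 of I and II for 591 genes (3.14%) and below them for 673 genes (3.58%). The median log2 fold change over all 18807 genes was 0.01. The number of called genes was 7400 without ap2-12 replicate II. The test treats the 12 libraries as independent: if libraries of one number shared a harvest, there are only 2 numbers against 2, for which the smallest exact two-sided permutation p is 0.333. Leaving out the 3 libraries of replicate I left 2303 called genes, leaving out those of replicate IV left 2169, and leaving out the 4 WT libraries left 1844. Of the 609 tested members of the 38 lists described below, 280 were called, against 318 without ap2-12 replicate II, 147 without replicate I, 111 without replicate IV and 118 without WT.

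Clock genes of the morning were split. Of 13 tested members of the morning-phased list, 7 fell and 5 rose in III and IV (35.5% of all genes were called), and the median log2 fold change was -0.49. LHY (AT1G01060, chromosome 1), the partner of CCA1 at dawn, was at 12.7 to 35.7 CPM (median 22.6) in III and IV, against 42.5 to 224 CPM (median 97.2) in I and II. The lowest LHY level in I and II, in rAP2-VENUS replicate II, stood above the highest in III and IV, in ap2-12 replicate III, and the log2 fold change was -2.05 (SE 0.35, edgeR adjusted p = 0.00127), which made LHY 4.14-fold lower in III and IV. CCA1 (AT2G46830, chromosome 2) was at 17.2 to 27.6 CPM (median 21.1) in III and IV and 32.5 to 98.1 CPM (median 53.7) in I and II, with no overlap, and fell by 1.35 (SE 0.25, edgeR adjusted p = 0.00174). RVE8, a related MYB factor that activates evening genes, was at 5.81 to 10.1 CPM (median 8.12) in III and IV, against 11.0 to 30.3 CPM (median 18.8) in I and II, and fell by 1.22 without overlap (SE 0.24, edgeR adjusted p = 0.00228). LHY, CCA1 and RVE8 were the 3 members whose groups did not overlap, beside 6.72% of all genes.

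Among the other morning genes, PRR9, the earliest of the pseudo-response regulators, was at 5.59 to 12.4 CPM (median 8.75) in III and IV and 10.2 to 25.6 CPM (median 14.9) in I and II, and fell by 0.86 with a small overlap of the sets. The LNK genes, which encode coactivators that work with RVE8, fell by 0.49 (LNK1), 0.53 (LNK2) and 0.57 (LNK3), while LNK4 had a log2 fold change of 0.11 and was not called (edgeR adjusted p = 0.459). PRR7, the next pseudo-response regulator after PRR9, rose by 0.28, with 200.2 to 244 CPM (median 235) in III and IV, against 164 to 211 CPM (median 189) in I and II. The 4 relatives RVE1, RVE2, RVE4 and RVE7 of CCA1 rose by small amounts: RVE1 by 0.56, RVE4 by 0.43, RVE2 by 0.41 and RVE7 by 0.30 on the log2 scale. In all of these the libraries of the sets overlapped. The call of RVE7 was lost in 5 of the 12 fits that left out 1 library, and so was that of LNK3. The list counts stayed at 7 lower and 5 higher without ap2-12 replicate II. Without replicate IV, 2 morning genes were called lower and 3 higher.

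Day- and evening-phased clock genes were higher in III and IV. Of 15 tested members, 11 rose and 0 fell (17.8% of all genes were called in each direction). The median log2 fold change was 1.05. For 6 of the 15, and for 6.72% of all genes, the 6 and 6 libraries did not overlap. ELF4, a subunit of the evening complex, was at 2.14 to 16.2 CPM (median 4.65) in III and IV, against 0.153 to 2.95 CPM (median 0.648) in I and II, a log2 fold change of 2.80 (SE 0.40, edgeR adjusted p = 0.00091). The sets overlapped in 1 place, where rAP2-VENUS replicate II at 2.95 CPM stood above ap2-12 replicate III at 2.14 CPM. LUX, the DNA-binding subunit of the same complex, was at 31.6 to 59.0 CPM (median 37.7) in III and IV and 12.1 to 26.8 CPM (median 18.9) in I and II and rose by 1.05 without overlap (SE 0.17, edgeR adjusted p = 0.00108). ELF3, the third subunit, rose by 0.40, with 90.2 to 123 CPM (median 103) in III and IV and 70.3 to 93.4 CPM (median 80.9) in I and II. BOA, a close relative of LUX, rose by 1.42, with 3.94 to 8.50 CPM (median 5.42) in III and IV, against 1.35 to 3.40 CPM (median 1.75) in I and II, and no overlap.

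The late pseudo-response regulators PRR5, PRR3 and TOC1 rose, with no overlap between the sets. PRR5 was at 52.3 to 115 CPM (median 62.6) in III and IV, against 6.68 to 51.9 CPM (median 16.3) in I and II, where the 2 WT libraries were lowest and rAP2-VENUS replicate II was highest. Its sets did not overlap, although the gap was under 1 CPM, and the log2 fold change was 1.82 (SE 0.32, edgeR adjusted p = 0.00153). PRR3 was at 15.3 to 34.5 CPM (median 22.1) in III and IV and 5.04 to 14.3 CPM (median 7.31) in I and II, and rose by 1.47. TOC1, which represses CCA1 and LHY at night, was at 103 to 192 CPM (median 117) in III and IV and 59.0 to 97.4 CPM (median 73.5) in I and II, and rose by 0.86 (SE 0.12, edgeR adjusted p = 0.00093). Every library of III and IV stood above every library of I and II for PRR3 and TOC1 as well.

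FKF1, a blue light receptor that peaks late in the day, was at 10.4 to 68.5 CPM (median 19.1) in III and IV, against 0.729 to 16.2 CPM (median 2.72) in I and II, and rose by 2.56 (SE 0.45, edgeR adjusted p = 0.00144). The highest FKF1 level was in rAP2-VENUS replicate IV, and rAP2-VENUS replicate II lay within the range of III and IV. Its relatives ZTL and LKP2 had log2 fold changes of 0.12 and 0.21 and were not called (edgeR adjusted p = 0.132 and 0.057). GI, the partner of FKF1 and ZTL, rose by 0.41, with 94.1 to 142 CPM (median 99.4) in III and IV and 67.6 to 109.8 CPM (median 78.8) in I and II. COR27, a repressor of clock genes that is itself an evening gene, was at 7.25 to 37.7 CPM (median 11.0) in III and IV, against 1.35 to 4.23 CPM (median 2.05) in I and II, and its log2 fold change of 2.60 (SE 0.40, edgeR adjusted p = 0.00101) came with no overlap. CCR2, an RNA-binding protein driven by the clock, rose by 1.30, with 829 to 2164 CPM (median 1143) in III and IV and 318 to 1091 CPM (median 426) in I and II. Its close relative CCR1 (0.22) and the TCP factor CHE (-0.09) were not called, at edgeR adjusted p = 0.123 and 0.526. Without ap2-12 replicate II, 12 of the 15 were called higher. The higher calls ran from 9 to 13 over the omissions of 1 library or of 1 replicate number.

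**Figure D2:**
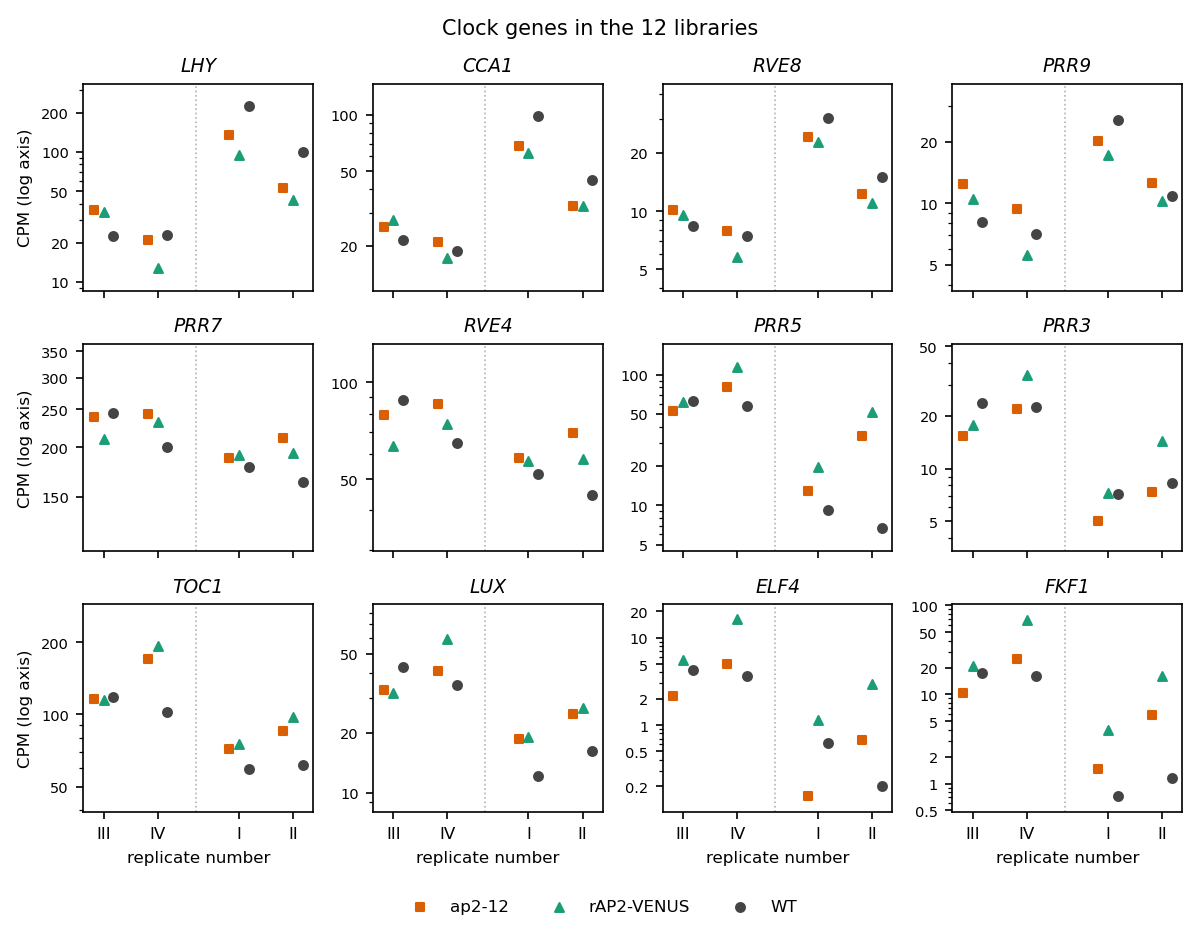
Level of 12 clock genes in CPM (vertical axes, log scale) by replicate number (horizontal axes), III and IV left of I and II; each point is 1 library and its shape gives the genotype. LHY, CCA1 and RVE8 are lower in every library of III and IV than in any of I and II, and PRR5, PRR3, TOC1 and LUX are higher, while FKF1 and ELF4 overlap.

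The evening element is printed here in the promoters of 3 called clock genes that hold it, TOC1, BOA and LUX, because it is the motif through which CCA1 and LHY are known to act on evening genes. Sequences are the 250 bases before the annotated start in RefSeq's TAIR10.1 annotation, on the strand of the gene, with the evening element (AAAATATCT or its reverse complement AGATATTTT) and the G-box (CACGTG, a motif of light- and clock-related factors) in capitals. TOC1 lies at chr5:24674713-24674962 on the forward strand, BOA at chr5:24003638-24003887 on the forward strand and LUX at chr3:17182792-17183041 on the forward strand.
TOC1: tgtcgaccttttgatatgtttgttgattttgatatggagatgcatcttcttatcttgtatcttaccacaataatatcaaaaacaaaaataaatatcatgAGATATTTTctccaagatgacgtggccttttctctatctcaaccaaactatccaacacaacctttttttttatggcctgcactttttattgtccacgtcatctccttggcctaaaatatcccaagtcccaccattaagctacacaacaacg
BOA: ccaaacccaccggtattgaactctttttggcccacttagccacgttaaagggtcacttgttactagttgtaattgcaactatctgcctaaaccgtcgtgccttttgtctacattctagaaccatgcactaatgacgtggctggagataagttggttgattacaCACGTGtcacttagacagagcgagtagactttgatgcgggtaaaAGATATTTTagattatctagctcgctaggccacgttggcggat
LUX: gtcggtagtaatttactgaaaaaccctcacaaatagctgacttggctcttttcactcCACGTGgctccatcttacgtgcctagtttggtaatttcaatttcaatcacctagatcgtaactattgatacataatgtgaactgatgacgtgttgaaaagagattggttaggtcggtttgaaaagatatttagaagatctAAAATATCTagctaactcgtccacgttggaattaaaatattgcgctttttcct
TOC1, BOA and LUX hold 1 evening element each, and BOA and LUX also hold a G-box.

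Windows of 300 bases, from 250 before to 50 after the annotated start, were searched on both strands for each motif in the 18733 tested genes that had one. The evening element occurred in 8 of 15 day- and evening-phased clock genes, of which 7 were called higher, in 2 of 13 morning-phased ones and in 3.06% of all 18733 windows. It was in 158 of 3336 windows of genes called higher (4.74%, 95% exact binomial interval 4.04% to 5.51%), in 2.63% of those called lower (2.12% to 3.24%) and in 2.71% of those not called (2.43% to 3.02%). Among genes at least 2-fold higher it was in 29 of 301 (9.63%, 6.55% to 13.5%), and among those at least 2-fold lower in 9 of 120 (7.5%, 3.49% to 13.8%). The G-box was in 10 of 13 morning-phased clock genes, 3 of 15 day- and evening-phased ones and 8.92% of all windows, and in 18.3% of the windows of genes at least 2-fold lower (11.9% to 26.4%), against 12% of those at least 2-fold higher (8.52% to 16.2%). The related CCA1 binding site AAAAATCT was in 9.05% of windows of genes called higher, 8.2% of those called lower and 8.27% of all. These counts describe letters in a window, with intervals for counting error only, and say nothing of binding.

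Within the pairs of numbers the differences were smaller by sum of squares. These contrasts set 3 libraries against 3, so their counts of calls cannot be compared directly with those of 6 against 6. Between IV and III, 0 of 18807 genes were called (0%) in edgeR's quasi-likelihood test with 4 numbers as a term, 0 by limma-voom and 7 by DESeq2, and 1164 genes had an unadjusted p under 0.05. Between II and I, 10 genes were called (0.0532%), 3 of them higher (0.016%) and 7 lower (0.0372%) in II, and 3381 had an unadjusted p under 0.05, while DESeq2 called 359. The 7 lower genes were CCA1, RVE8, LNK2, the light signalling gene SPA3, TZP, which encodes a nuclear light and growth regulator, CRF10 and AT5G62130, and the higher ones were ACA8, SCPL49 and AT1G27710, all named because the count was small. LNK2 averaged 183 CPM in replicate II and 277 CPM in replicate I, a log2 fold change of -0.60 (SE 0.06, edgeR adjusted p = 0.00803), and CCA1 averaged 36.7 ± 7.15 CPM in replicate II and 76.4 ± 19.0 CPM in replicate I (SD, n = 3 each). The calls between II and I were 1182 without WT replicate III, 469 without WT replicate II and 149 without rAP2-VENUS replicate III, and 0 to 7 without any 1 of the other 9 libraries, with 0 without WT replicate I or rAP2-VENUS replicate II.

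By number, LHY averaged 30.9 ± 7.27 CPM in replicate III and 18.8 ± 5.30 CPM in IV, against 151 ± 66.4 CPM in I and 65.2 ± 30.7 CPM in II (SD, n = 3 libraries each, 1 per genotype). PRR5 averaged 59.2 ± 5.99 CPM in III and 84.2 ± 28.9 CPM in IV, against 13.9 ± 5.24 CPM in I and 30.9 ± 22.8 CPM in II. The morning gene stood highest in replicate I and lowest in replicate IV, and the evening gene the other way round. Neither was called between IV and III (edgeR adjusted p = 0.786 for LHY and 0.878 for PRR5) or between II and I (0.0827 and 0.206).

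Each genotype was also compared on its own, 2 libraries against 2 with the spread taken from all 6 groups. In ap2-12 and in rAP2-VENUS 0 genes were called by edgeR (0% each), with 3078 and 3344 genes at an unadjusted p under 0.05, 0 calls each by limma-voom and 145 and 339 by DESeq2. In WT, 3562 genes (18.9%) were called, 1774 higher (9.43%) and 1788 lower (9.51%) in III and IV. The ap2-12 count was 890 without ap2-12 replicate II, and the WT count was 1817 without WT replicate II and 0 without WT replicate I or WT replicate III. Whether the set difference depended on genotype was itself tested, and 0 genes were called (0%; 510 at an unadjusted p under 0.05, 0 by limma-voom, 1 by DESeq2). With 2 libraries against 2 in each genotype, a lack of calls does not show equal differences. Of the 3562 genes called in WT, 97.2% had the same sign in ap2-12 and 98.6% in rAP2-VENUS, against 78% and 77.5% of all genes. In the direction of WT their median log2 fold change was 0.32 in ap2-12 and 0.34 in rAP2-VENUS, and their median size in WT was 0.61. Since genes were picked by their size in WT, the WT median is raised by that choice.

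LHY had a log2 fold change of -1.74 in ap2-12, -1.56 in rAP2-VENUS and -2.83 in WT, and FKF1 had 2.25, 2.16 and 4.099. All 15 day- and evening-phased genes were higher in III and IV in ap2-12, and 14 of 15 were higher in rAP2-VENUS and in WT, with median log2 fold changes of 0.86, 0.99 and 1.44. The S phase genes were lower in all 3 genotypes, 18 of 18 in each, with medians of -0.76 in ap2-12, -0.57 in rAP2-VENUS and -1.095 in WT. These counts of sign include members that were not called.

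Genes downstream of the clock and of light moved in both directions, beside 17.8% of all genes called in each direction. Of 8 tested photoperiod output genes, 2 rose and 2 fell. COL9, a relative of the flowering gene CONSTANS that delays flowering, was at 33.5 to 52.4 CPM (median 37.3) in III and IV, against 12.2 to 26.5 CPM (median 18.8) in I and II, and rose by 1.04 without overlap, COL5 rose by 0.61, and COL2 fell by 0.73 without overlap. Of 27 light signalling genes, 10 fell and 5 rose. ELIP1 and ELIP2, chloroplast proteins made under bright light, fell by 3.01 and 2.25. ELIP1 was at 5.13 to 50.5 CPM (median 7.99) in III and IV and 13.7 to 185 CPM (median 82.4) in I and II, and the overlap came from rAP2-VENUS replicate III at 50.5 CPM and ap2-12 replicate II at 13.7 CPM. HYH fell by 1.57 and its partner HY5, a factor that promotes light responses, by 0.55, and PIF4, a growth-promoting factor that light represses, rose by 0.86. The called-higher count of this list was 3 without WT replicate II and 0 without replicate IV. In the cold regulon 5 of 11 genes rose, among them KIN2 (0.43), COR413IM1 (1.13) and COR15B (0.53), with all sets overlapping, and the count was 2 without WT replicate I, WT replicate IV or ap2-12 replicate IV and 3 without rAP2-VENUS replicate I, WT replicate II or WT replicate III.

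Sugar starvation genes, which are known to rise in leaves kept in the dark, rose in III and IV. Of 17 tested members, 13 rose and 1 fell, beside 17.8% of all genes called in each direction. Their median log2 fold change was 0.81. DIN1 (AT4G35770, chromosome 4), a marker of darkness and senescence, was at 189 to 351 CPM (median 257) in III and IV, against 5.73 to 135 CPM (median 28.6) in I and II, a log2 fold change of 2.44 (SE 0.53, edgeR adjusted p = 0.00392). WT replicate I had the lowest level and ap2-12 replicate II the highest of I and II, and the sets did not overlap. BCAT2, an enzyme of branched-chain amino acid metabolism, was at 19.2 to 49.2 CPM (median 32.4) in III and IV and 1.76 to 14.4 CPM (median 4.02) in I and II, and rose by 2.47 (SE 0.38, edgeR adjusted p = 0.00103). ASN1 (DIN6), asparagine synthetase, was at 595 to 972 CPM (median 757) in III and IV and 33.5 to 479 CPM (median 171) in I and II, and rose by 1.79. Neither gene overlapped between the sets.

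Other members of the breakdown of branched-chain amino acids rose as well: MCCA by 1.75, IVD by 0.60, DIN3 by 0.75 and MCCB by 0.38. The sugar-repressed factor BZIP1 rose by 1.25 and the raffinose synthase-like gene DIN10 by 1.67, and the class II trehalose phosphate synthase genes TPS8, TPS9, TPS10 and TPS11 rose by 0.99, 0.81, 0.69 and 0.94. BZIP11, whose translation sucrose represses, was the 1 member that fell, by 0.76. Without ap2-12 replicate II the counts were again 13 and 1, and without replicate IV 6 members were called higher.

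Of 20 tested starch genes, 12 rose and 3 fell (17.8% of all genes were called in each direction), with a median of 0.28. BAM4, a chloroplast protein needed for starch breakdown, was at 123 to 279.6 CPM (median 175) in III and IV, against 41.7 to 98.8 CPM (median 67.3) in I and II, and rose by 1.41 without overlap (SE 0.23, edgeR adjusted p = 0.00116). Other breakdown genes that rose were BAM3 (0.72), DPE1 (0.48), PWD (0.41), ISA3 (0.40), AMY3 (0.28) and SEX1 (0.32). The remaining 5 that rose were BAM9 (0.36), BAM1 (0.36), PHS1 (0.32), PHS2 (0.27) and SEX4 (0.17). The 3 that fell are known from synthesis: the granule-bound starch synthase GBSS1 by 0.60, the soluble starch synthase SS1 by 0.34 without overlap, and APL3, a subunit of ADP-glucose pyrophosphorylase, by 0.24. The 5 not called were the starch synthase genes SS2 and SS4 and the genes LSF1, DPE2 and MEX1, and a difference between breakdown and synthesis was not tested. The count of 12 was 7 without rAP2-VENUS replicate IV, 4 without replicate I and 3 without replicate IV.

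Of 29 photosynthesis genes 10 rose and 2 fell, by small amounts (35.5% of all genes were called in either direction). LHCA4 rose by 0.52, GAPA by 0.31, and LHCB2.1, which has a near-identical copy in LHCB2.2, fell by 0.32. The summed level of the 29 genes was 15777 to 29645 CPM in III and IV and 13092 to 27536 CPM in I and II, and the count of 10 was 6 without WT replicate I, 0 without replicate I, 18 without replicate II, 1 without replicate IV and 0 without WT. Of 16 chlorophyll synthesis genes 4 rose and 2 fell, a share near that of all genes. HEMA1, the first committed enzyme of tetrapyrrole synthesis, was at 0.38, the regulator GUN4 at -0.41 and the transcription factor GLK1 at -0.51. The 4 higher calls were 2 when any of 8 libraries was left out: replicate I or IV of each genotype, WT replicate II or WT replicate III.

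Flavonoid genes, which make flavonols and anthocyanin pigments, fell in III and IV. Of 16 tested members 12 fell and 0 rose, with a median log2 fold change of -1.34, and 5 of the 16 had no overlap. Among all genes 17.8% were called lower, and 3.58% were lower without overlap. TT4 (chalcone synthase, AT5G13930), the entry enzyme, was at 245 to 478 CPM (median 338) in III and IV, against 709 to 1272 CPM (median 939) in I and II, and fell by 1.43 (SE 0.18, edgeR adjusted p = 0.000867). F3H, the hydroxylase that leads to dihydroflavonols, was at 60.2 to 106 CPM (median 71.2) in III and IV and 144 to 419.8 CPM (median 244) in I and II, and fell by 1.64. FLS1, flavonol synthase, was at 61.7 to 147 CPM (median 102) in III and IV and 197 to 542 CPM (median 328) in I and II, and fell by 1.68. All 3 separated the sets in full.

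Downstream, the anthocyanin enzymes DFR and LDOX fell by 2.62 and 2.14 and the flavonoid hydroxylase TT7 by 2.06, with overlapping sets. DFR was at 0 to 2.57 CPM (median 0.816) in III and IV and 0.737 to 12.5 CPM (median 4.40) in I and II, low in the ap2-12 libraries of both sets. The glycosyltransferases UGT78D1, UGT78D2 and UGT78D3 fell by 0.63, 0.89 and 1.81. Of the regulators, the flavonol activators MYB11 and MYB12 fell by 0.88 and 0.60. MYB111 (-0.33) and the anthocyanin activators MYB75 (-1.30), MYB90 (-0.89) and TT8 (-0.36) were not called. The lower calls numbered 13 without ap2-12 replicate II, and without replicate IV 7 were.

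Of 11 tested sulfur assimilation genes 7 fell and 0 rose, with a median of -0.47, and 5 had no overlap. By comparison, 17.8% of all genes were called lower and 3.58% were lower without overlap. The APR genes encode adenosine phosphosulfate reductase, the rate-setting step of the pathway. APR1 was at 7.24 to 12.4 CPM (median 9.67) in III and IV, against 15.5 to 77.6 CPM (median 55.7) in I and II, and fell by 2.28 (SE 0.37, edgeR adjusted p = 0.00108). APR3 was at 10.02 to 17.41 CPM (median 13.7) in III and IV and 22.8 to 96.0 CPM (median 71.1) in I and II, and fell by 2.15, and APR2 fell by 1.46. The lowest levels of I and II were those of ap2-12 and rAP2-VENUS replicate II for APR3, and all 3 genes separated the sets. Sulfite reductase, SIR, was at 154 to 178 CPM (median 162) in III and IV and 199.9 to 234 CPM (median 219) in I and II and fell by 0.40, also without overlap. SDI1, named for its induction by sulfur deficiency, fell by 2.94 at a low level of 0.0951 to 0.878 CPM (median 0.253) in III and IV and 0.605 to 6.80 CPM (median 2.68) in I and II, and the vacuolar sulfate exporters SULTR4;1 and SULTR4;2 fell by 0.50 and 0.47. The ATP sulfurylase genes APS1, APS3 and APS4 and the transporter SULTR1;2 were not called. Without ap2-12 replicate II, 9 members were called lower. Over the omissions of 1 library or of 1 replicate number, this count ran from 6 to 9.

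Of all genes, 17.8% were called in each direction and 6.72% had no overlap. Of 14 nitrate assimilation genes 5 fell and 2 rose, and 2 had no overlap. Without overlap the glutamine synthetase gene GLN1;1 fell by 0.71 and the nitrate reductase gene NIA1 by 0.81, while the glutamate synthase gene GLT1 fell by 0.29 with an overlap. Of 16 glucosinolate genes 7 fell and 1 rose, with a median of -0.43, and the 7 were 4 without replicate I or without WT and 11 without replicate II. SUR1, the C-S lyase of the pathway, fell by 0.38 and the sulfotransferase SOT16 by 0.59, and the regulator MYB51 rose by 2.36 at under 4 CPM in every library. In the iron list 2 of 6 rose, the ferric reductase gene FRO3 by 1.099 without overlap and the ferritin gene FER1 by 0.38, whose call was lost without WT replicate I, WT replicate IV or ap2-12 replicate IV.

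Genes of DNA replication fell. Of 18 tested S phase genes 16 fell and 0 rose, with a median log2 fold change of -0.81, and 9 of the 18 had no overlap. The shares of all genes were 17.8% called lower and 3.58% lower without overlap. In these bulk samples fewer cells of a type and less RNA per cell cannot be told apart. MCM3, a subunit of the replicative helicase, was at 56.2 to 83.2 CPM (median 68.3) in III and IV, against 102 to 185 CPM (median 143) in I and II, and fell by 1.06 (SE 0.13, edgeR adjusted p = 0.000867). The other tested helicase subunits MCM2, MCM4, MCM5, MCM6 and MCM7 fell by 0.94, 0.81, 0.81, 0.96 and 0.82, and all 6 separated the sets. The sliding clamp genes PCNA1 and PCNA2 fell by 1.05 and 0.38, the ribonucleotide reductase genes RNR1 and TSO2 by 0.89 and 1.01, and the origin licensing genes ORC1A, ORC1B, CDT1A and CDC6 by 0.87, 0.65, 0.77 and 0.53. Of the E2F factors that drive S phase genes, E2FA fell by 0.69 and E2FB was not called (-0.10, edgeR adjusted p = 0.403).

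Mitotic genes fell by less. Of 20 tested, 9 fell and 1 rose, beside 17.8% of all genes called in each direction. The median was -0.20, and 0 had no overlap, against 6.72% of all genes. The kinesin gene HIK fell by 0.36, the spindle gene TPX2 by 0.27 and the B-type cyclin gene CYCB1;2 by 0.26, and the 1 that rose was CYCB2;3 (0.18), whose call was lost in 7 of the 12 fits without 1 library. Whether the S phase and mitotic lists differed from each other was not tested. Without ap2-12 replicate II the counts of lower calls were 17 and 11, and without the WT libraries they were 10 and 3.

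Of 16 genes of ribosome biogenesis and ribosomal proteins 11 fell and 0 rose, beside 17.8% of all genes called in each direction. Their median was -0.27. NOP56, a core protein of box C/D particles that modify ribosomal RNA, was at 229 to 315 CPM (median 259) in III and IV, against 329 to 548 CPM (median 453) in I and II, and fell by 0.74 without overlap. Its partner FIB2 (fibrillarin) fell by 1.18, the nucleolin gene NUC-L1 by 0.62 and APUM24, a nucleolar RNA-binding protein, by 0.64. The ribosomal protein genes that fell did so by 0.23 (RPL5A) to 0.44 (RPL23AB), and 7 members were called lower without replicate IV.

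**Figure D3:**
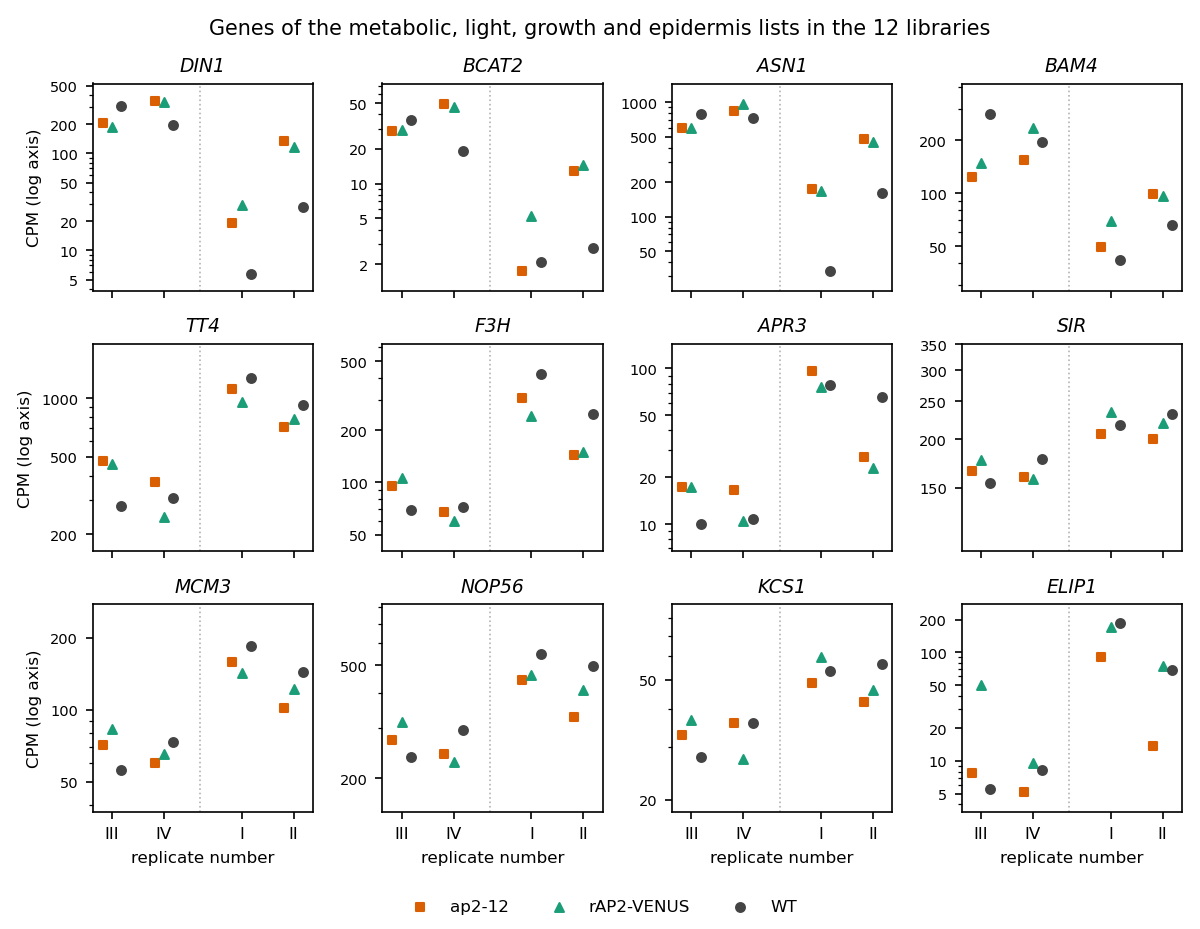
Level of 12 genes of the metabolic, light, growth and epidermis lists in CPM (vertical axes, log scale) by replicate number (horizontal axes), III and IV left of I and II; each point is 1 library and its shape gives the genotype. DIN1, BCAT2, ASN1 and BAM4 are higher in every library of III and IV than in any of I and II, and TT4, F3H, APR3, SIR, MCM3, NOP56 and KCS1 are lower, while ELIP1 overlaps.

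Regulators of the meristem and of flowers differed by small amounts, where 17.8% of all genes were called in each direction. Of 19 meristem and boundary genes 10 fell and 0 rose, with a median of -0.26 and no gene without overlap. ANT, a growth-promoting factor of young organs, was at 167 to 268 CPM (median 195) in III and IV, against 225 to 365 CPM (median 263) in I and II, and fell by 0.44. The boundary genes CUC1 and CUC2 fell by 0.46 and 0.31, and the meristem genes STM and KNAT1 by 0.32 and 0.51, while WUS (-0.24, edgeR adjusted p = 0.136) was not called. The number of lower calls was 4 without replicate I and 0 without replicate IV. Of 17 floral identity genes 3 fell and 1 rose, no more often than all genes in either direction. They included AP3 (-0.39) and AG (-0.25), which specify petals, stamens and carpels, among the lower ones and SHP1 (0.48) as the higher one. Of 20 flowering time genes 7 fell and 2 rose, with SPL5, SPL9 and SPL15, factors of the vegetative and floral transition, at -0.49, -0.39 and -0.47. For these lists the calls fell to 1 lower floral identity gene and 1 lower flowering gene without replicate IV.

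In the outer cell layer, 15 of 25 epidermis, cuticle and wax genes fell and 1 rose (17.8% of all genes were called in each direction), with a median of -0.27 and a summed level of 3778 to 5197 CPM in III and IV and 4201 to 6470 CPM in I and II. KCS1, an enzyme of fatty acid elongation, was at 27.4 to 36.9 CPM (median 34.4) in III and IV and 42.3 to 59.4 CPM (median 51.0) in I and II and fell by 0.64 without overlap, the lipid transfer gene LTPG1 fell by 0.49, the wax gene CER2 by 0.28, and the layer identity gene ATML1 by 0.19, also without overlap. MYB94, an activator of wax genes, was the 1 that rose (0.28). The 15 were 9 without replicate I or replicate IV and 8 without WT. Of 15 stomatal lineage genes 3 fell: the receptor genes ERL2 by 0.54 without overlap and ERL1 by 0.34, and SPCH, which starts the lineage, by 0.31, a call lost in 7 of 12 fits without 1 library.

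Hormone lists gave small counts on either side, beside 17.8% of all genes called in each direction. Of 17 auxin genes 4 fell, with TAA1, an enzyme of auxin synthesis, at -0.30, and 1 rose, the auxin-conjugating GH3.5 (0.79). Of 21 cytokinin genes 5 fell, among them the cytokinin oxidase CKX5 (-1.26) and the receptor AHK4 (-0.37), and 2 rose, with the activating enzyme LOG1 at 0.68 without overlap. Of 18 gibberellin genes 5 rose, among them the receptor GID1A (0.47) and the responsive genes GASA4 (0.50) and GASA6 (0.95), and 4 fell. The 4 were 1 without WT replicate I, WT replicate III or ap2-12 replicate IV and 2 without WT replicate II or rAP2-VENUS replicate III. Of 14 brassinosteroid genes 5 rose, with the synthesis genes CPD (0.66) and DWF4 (0.40) among them, and 2 fell, with the receptor BRI1 at -0.24. Those 5 were 3 without replicate I of WT or ap2-12 or replicate IV of ap2-12 or rAP2-VENUS. Counts of 3 or fewer called members in any list changed by at most 2 when 1 library was left out.

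In the next 3 lists the shares called higher lay near the 17.8% of all genes, or rested on 3 members or fewer. Of 17 abscisic acid genes 4 rose, with ABF3 at 0.39, HAI1 at 0.41 and ABI5 at 0.41, and 0 were called higher without WT. Of 10 ethylene genes 3 rose, with EBF2 at 0.30, ERS2 at 0.26 and ACO4 at 0.29, of which ERS2 and ACO4 lost their call in 8 and 9 of 12 fits without 1 library. The 3 were 5 without ap2-12 replicate II. Of 11 salicylic acid genes 2 rose, WRKY70 by 0.94 and NPR4 by 0.24, and NPR4 was lost in 8 of 12 such fits. Of 29 wounding, touch and jasmonate genes 4 rose and 2 fell. TCH3, a calmodulin-like touch gene, was at 16.8 to 156 CPM (median 29.7) in III and IV, against 6.98 to 30.6 CPM (median 12.1) in I and II, with the highest level in ap2-12 replicate IV, and rose by 1.72, the repressor gene JAZ7 rose by 1.51, and the jasmonate synthesis gene LOX2 fell by 0.50. The 4 were 2 without WT replicate I or WT replicate III, 8 without ap2-12 replicate III and 7 without rAP2-VENUS replicate IV. Of 10 heat shock genes 5 fell, with HSP70 at -0.50, HSP90.1 at -0.35 and HSFB1 at -0.47, and 1 rose, and the 5 were 3 without ap2-12 replicate I or WT replicate III.

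Markers of other cell types and stages were called no more often than all genes (35.5%) in 6 lists: 6 of 19 anther and tapetum genes, 4 of 20 meiosis genes, 3 of 15 carpel and ovule genes, 1 of 7 pollen genes, 2 of 7 petal and stamen growth genes and 0 of 12 xylem and secondary wall genes. Of the 19 anther and tapetum genes 4 rose and 2 fell, with a median of 0.46 and a summed level of 768 to 2279 CPM in III and IV and 546 to 1999 CPM in I and II. ATA20, a tapetum gene, rose by 1.11, while the early anther genes EMS1 and DYT1 fell by 0.35 and 0.60, and ATA20 and DYT1 each lost their call in 8 of 12 fits without 1 library. The late tapetum regulator MS1 rose by 1.41, the anther gene A7 by 2.28 and TKPR1, an enzyme of pollen wall synthesis, by 0.43, and A7 had 0 counts in WT replicates I and IV and MS1 in WT replicates I and II. The 4 higher calls were 11 without ap2-12 replicate II, 7 without rAP2-VENUS replicate III and 0 without WT replicate I, II or III, ap2-12 replicate I or IV, or rAP2-VENUS replicate II or IV, and the part of anther stage in the other results was not tested. Of 20 meiosis genes 3 fell and 1 rose, with ASY3 at -0.33 without overlap, SWI1 at -0.64 and OSD1 at 0.34. Of 15 carpel and ovule genes SPT rose (0.31) and CRC (-0.46) and STY1 (-0.34) fell, and STY1 was lost in 8 of 12 fits without 1 library.

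Of 7 pollen genes AGL65 fell (-0.38), a call lost in 9 of 12 such fits. Of 7 petal and stamen growth genes ARF8 (-0.41) and TCP4 (-0.49) fell. Of 13 phloem genes 3 rose and 3 fell, beside 17.8% of all genes called in each direction, with PP2-A1 at 1.01, OPS at -0.46 and SMXL5 at -0.29. Of 12 xylem and secondary wall genes 0 were called, and MYB46, the one with the smallest p, had a log2 fold change of -0.62 (edgeR adjusted p = 0.0797). The summed xylem level was 48.6 to 131 CPM in III and IV and 40.6 to 133 CPM in I and II.

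**Figure D4:**
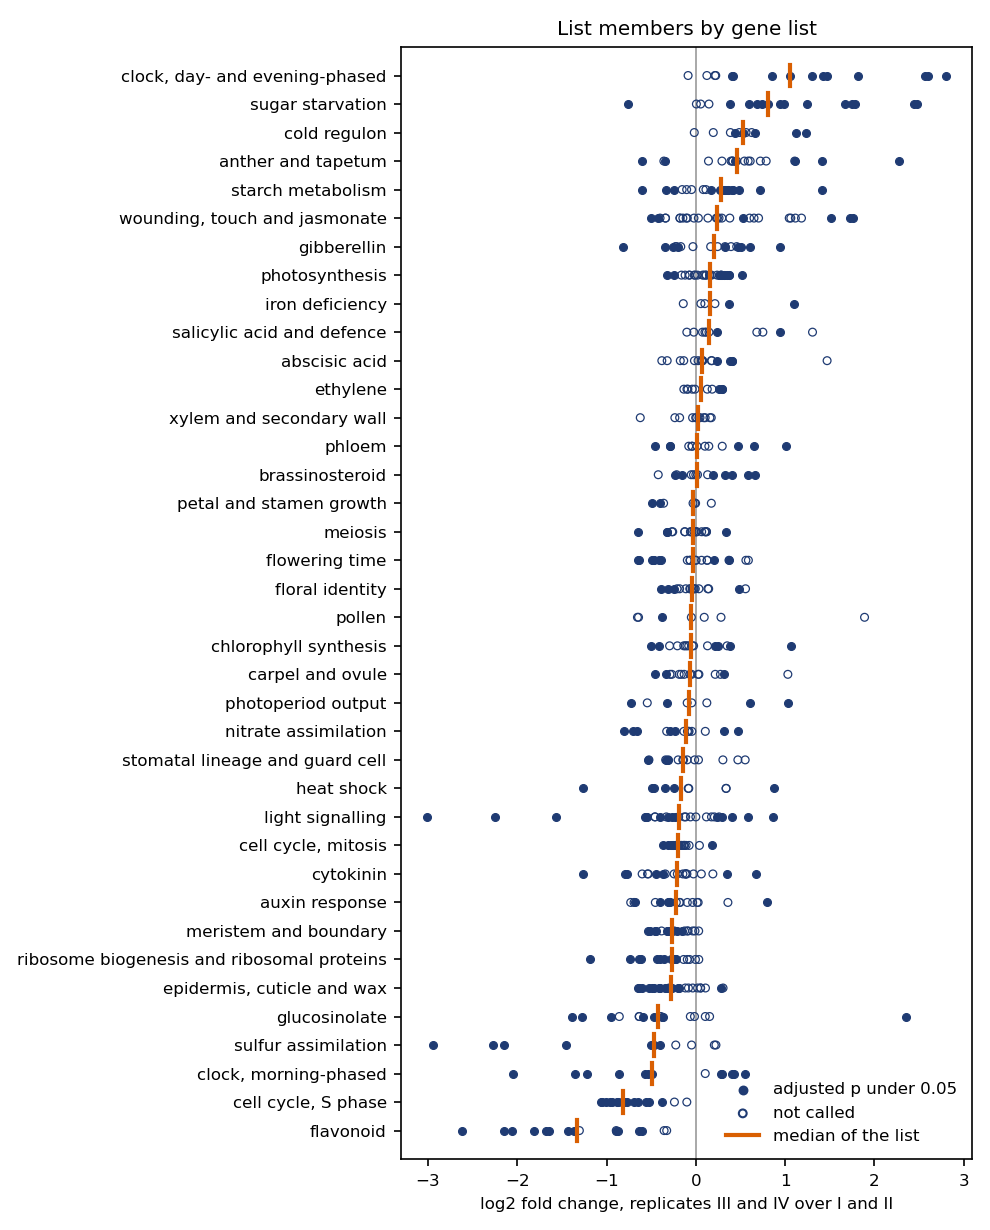
Log2 fold change of III and IV over I and II (horizontal axis) of every tested member of 38 gene lists (rows, ordered by median); filled points passed an adjusted p under 0.05, open points did not, and the orange bar is the median of the list. Day- and evening-phased clock genes (median 1.05) and sugar starvation genes (0.81) lie at the top, S phase genes (-0.81) and flavonoid genes (-1.34) at the bottom.

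The largest changes among named genes that averaged 5 CPM or more and separated the sets were those of genes already described and of a few outside the lists. Beside COR27, BCAT2, DIN1, PRR5 and ASN1, the 10 largest that rose were UMAMIT33 (2.25), named for a family of amino acid transporters, MEE14 (1.95), the protein kinase CIPK21 (1.82), the dormancy-associated gene DYL1 (1.64) and WRI4 (1.59), a factor that activates wax genes in stems. DYL1 was at 654 to 1080.4 CPM (median 878) in III and IV, against 74.6 to 652 CPM (median 231) in I and II, where ap2-12 replicate II came within 2 CPM of the lowest library of III and IV. AT2G33830, which has no symbol in the table used and was chosen after its values were seen, was at 186 to 747 CPM in III and IV and 1.35 to 181 CPM in I and II, with a log2 fold change of 3.49.

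Beside APR1, APR3, LHY, FLS1 and F3H, the 10 largest that fell were 4CL3 (-1.88), which supplies the precursor of flavonoids, RHM1 (-1.74), which makes the UDP-rhamnose that flavonols carry, UGT84A1 (-1.53), a glucosyltransferase of hydroxycinnamates, the glutathione transferase gene ERD9 (-1.49) and Hsp70-2 (-1.46), a chaperone gene with close copies that may share reads. RHM1 was at 113 to 221 CPM (median 153) in III and IV, against 287 to 800.5 CPM (median 492) in I and II, and 4CL3 at 15.6 to 30.9 CPM (median 21.8) in III and IV, against 41.0 to 133 CPM (median 80.6) in I and II. Their lowest library in I and II was above the highest in III and IV, which the rule for naming these genes required.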

How the data were processed

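The authors deposited raw counts of reads per gene, 1 column of whole numbers for each library, on build TAIR10 as stated per the file headers. The submitters' processing notes name TopHat2, SAMtools and HTSeq, with no version or setting. The use of strand in counting is not stated there, so overlapping antisense genes and near-identical copies may share reads. Libraries were of the TruSeq type with single reads of 150 bp, per the labels' protocols. Of the 27416 rows, 26719 were found in RefSeq's TAIR10.1 table, which gave symbols and promoters. The 210 organelle rows hold 0 counts and no row holds unassigned reads. Depth was 9680133 to 15152704 counts per library, and p-values measure the spread between libraries, which for libraries of the same number may not be independent.

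Genes were kept by edgeR's filterByExpr with genotype as the group (18807 genes), libraries were scaled by TMM, and edgeR 4.0.16 (R 4.3.3) fitted genotype and number pair by quasi-likelihood. Calls are at a Benjamini-Hochberg adjusted p under 0.05 over all genes, and SE is the size of the log2 fold change over the square root of F. Contrasts within pairs of numbers and within genotypes came from fits with 4 numbers and with 6 groups. limma 3.58.1 (limma-voom) and DESeq2 1.42.0 were alternatives, beside other scalings and filters, a replicate block and omissions of libraries. Motif counts and drawing used Python 3.11.15, scipy 1.17.1 and matplotlib 3.10.9. The fits were tested on simulated counts with known changes. No libraries of a genotype agreed within sampling noise (chi-square per degree of freedom 5.19 to 47.9).

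The comparison, the 40 gene lists (738 members, 609 tested) and the rule for named genes were chosen with earlier results of these data known, so no pattern here is independent support. The rule takes all tested clock members, the 10 largest called changes in each direction that averaged 5 CPM or more, carry a symbol and separate the sets, and the 3 called members of each other list with the smallest adjusted p, or the 1 with the smallest if none is called. Further list members and the genes called between II and I were named after their values were seen. Some results on single genes and sequences are not reported here.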

Additional observations from a re-analysis of the deposited data

Results flagged for a closer look

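Of 94 sets of 6 libraries examined (library totals, component scores and the clock and largest-change genes), 2 held a library far from the other 5, where chance gives about 1 set in 20. The library total of rAP2-VENUS replicate III, 10579822 counts, was the lowest in III and IV, and its gap to the next library was 0.823 of the range of that set. CIPK21 was at 19.3 CPM in rAP2-VENUS replicate IV, the highest in III and IV, with a gap of 0.704 of the range on the log2 scale. The interaction test called no gene, so no difference between genotypes was listed here.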

How the results depend on the processing

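The count of 6685 called genes stayed within 1.5 times under upper-quartile (6668) and median-of-ratios scaling (6696), DESeq2 (6711), limma-voom (6689), no low-count filter (6425) and a filter of 1 CPM in 6 libraries (6679). With the replicate number as a term of 4 levels it was 7428. That fit takes the spread between the numbers of a pair out of the error, so it does not allow for libraries of one number that share a harvest. With the number as a random block in limma-voom (correlation 0.098) the count was 5439. Same-numbered libraries correlated in their deviations from the genotype means at 0.54 to 0.63 in replicate I, -0.01 to 0.23 in II, 0.05 to 0.47 in III and 0.39 to 0.56 in IV. These deviations still hold the difference between the sets, so the correlations cannot show whether the numbers pair the libraries. Without single libraries or all libraries of a number the count ran from 2169 to 7400. It was 2303 without replicate I, 2169 without replicate IV and 1844 without WT. No called named gene changed sign under any alternative run, and LNK4, not called, was at -0.01 without replicate II. With the random block 8 named genes (RVE7, NPR4, ACO4, STY1, ATA20, DYT1, AGL65, SPCH) lost their call, and with WT left out 43 did. The cause was not tested.

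Without a low-count filter the calls were 1 for IV against III, 113 for II against I and 4 within rAP2-VENUS. DESeq2, added for these contrasts after the data were seen, gave 7, 359 and 339 calls, 145 within ap2-12 and 1 for the interaction. When single libraries were left out, the calls ran from 0 to 43 for IV against III, 0 to 1182 for II against I, 0 to 890 within ap2-12, 0 to 6 within rAP2-VENUS and 0 to 4074 within WT. With the 500 most variable genes the first component held 65.3%, and on the gene strand alone the evening element was in 2.79% of windows of genes called higher. Genes near 1 CPM, such as DFR or SDI1, carry few counts per library.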
